A study of Rattus norvegicus with 9 samples.

Results

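Unannotated transcripts of 1 exon that lay inside an intron of a known gene, on the strand opposite to it, were 2.45 times as many in bone marrow mesenchymal stem cells (MSCs) induced towards neural progenitor cells (NPCs) as in untreated MSCs. The rise was not particular to this class. Unannotated transcripts of all kinds together numbered 64618 to 90998 per induced library and 28763 to 36570 per MSC library. Spliced ones among them differed less, at 9509 to 10543 and 7945 to 8348. Spliced antisense intronic ones did not rise, with means of 16 and 18. Each assembled transcript was counted as a member when it carried no annotated name, had 1 exon, overlapped no exon of an annotated transcript, and lay wholly inside an annotated transcript of the opposite strand and inside none of its own strand. This rule uses position and strand only, and it gave 8073 members among the 555558 unannotated transcripts of the 9 libraries. The annotated transcript that holds a member is called its host, and where several did, the one with the shortest span was taken.

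The cells were MSCs at passage 3 from the bone marrow of 3 Sprague-Dawley rats of 4 weeks. MSC libraries came from untreated cells, NPC libraries from cells kept for 3 days in NeuroCult NS-A medium on ultra-low attachment plates with EGF and bFGF (20 ng/ml each), and NPC-IGF-1 libraries from cells that also received IGF-1, at a dose the sources do not state. Each group had 3 libraries, made with a stranded mRNA kit from 300 ng of total RNA. Growth factors, medium and attachment changed together, so they cannot be told apart when induced cells are set against MSCs, and the sources do not say which libraries share a rat. The depth implied by the deposited values was 37.9 to 49.6 M reads per library (M stands for 10 to the power of 6).

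Eukaryotic genes are often transcribed on both strands. Antisense RNA inside an intron can come from a promoter of its own, from transcription that runs past the end of a convergent neighbouring gene, or from a transcript longer than its annotation. Some such RNAs regulate their host, and most have no known function. Intronic RNA on the host's own strand is mostly unspliced or partly processed precursor of the host, so it serves here as the class to compare with.

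The label NPC could be checked only in part, because few markers were named in the files. Nes, the intermediate filament of neural progenitors, stood at 0.27 to 0.33 FPKM (fragments per kilobase and per unit of depth, a level per length) in the 6 induced libraries and at 0.05 to 0.15 FPKM in MSCs. Fabp7, of radial glia, was listed at 0 in all 9 libraries, and Msi1, an RNA-binding protein of neural progenitors, was at 0.21 to 0.72 FPKM in induced cells and 0.31 to 0.55 FPKM in MSCs. Vim, the filament of mesenchymal cells, was at 629.5 to 879 FPKM in induced cells and 2560 to 3015 FPKM in MSCs. Of the 6 haematopoietic markers looked for, 2 were named: Cd68, abundant in macrophages, was at 8.93 to 14.4 FPKM in induced cells and 0.23 to 0.50 FPKM in MSCs, while Ptprc, the common leukocyte antigen, was at 0 to 0.01 FPKM everywhere. Among neuronal and glial markers, Rbfox3 was listed at 0, Syt1 was at 0 to 0.15 and Gfap at 0 to 0.02 FPKM, and no endothelial marker was named. Cd68 thus moved with induction, as did every difference between induced cells and MSCs below, and its part in them was not tested.

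The NPC libraries held 1200, 1148 and 1157 members, the NPC-IGF-1 libraries 1158, 967 and 1075, and the MSC libraries 397, 551 and 420. The highest MSC library stayed well below the lowest induced one. The mean was 1118 ± 84.1 (SD, n = 6) in induced cells and 456 ± 83.1 (n = 3) in MSCs (exact permutation test, two-sided, adjusted p = 0.0179 over 6 measures). The unadjusted p, 0.0119, is the smallest that the 84 regroupings of 6 and 3 libraries can give. The cells came from 3 rats, so the 6 induced libraries may not be independent. This test, like the same tests below, treats them as independent. Regrouping within replicate numbers, given in a closing section, cannot reach the threshold after adjustment. Depth overlapped between the groups, and members per M reads were 23.5 to 30.6 in induced cells and 9.58 to 11.1 in MSCs.

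Members fell in 505 to 546 host genes per induced library and in 247 to 332 per MSC library (528.8 ± 14.3 against 279 ± 46.5, adjusted p = 0.0179 by the same exact test). The mean number of members per host was thus higher after induction, 1.91 to 2.28 per library against 1.61 to 1.66. These means are over host sets that differ between libraries, and not every host gained members. Hosts with 5 or more members numbered 34 to 57 per induced library and 9 to 16 per MSC library.

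**Figure D1:**
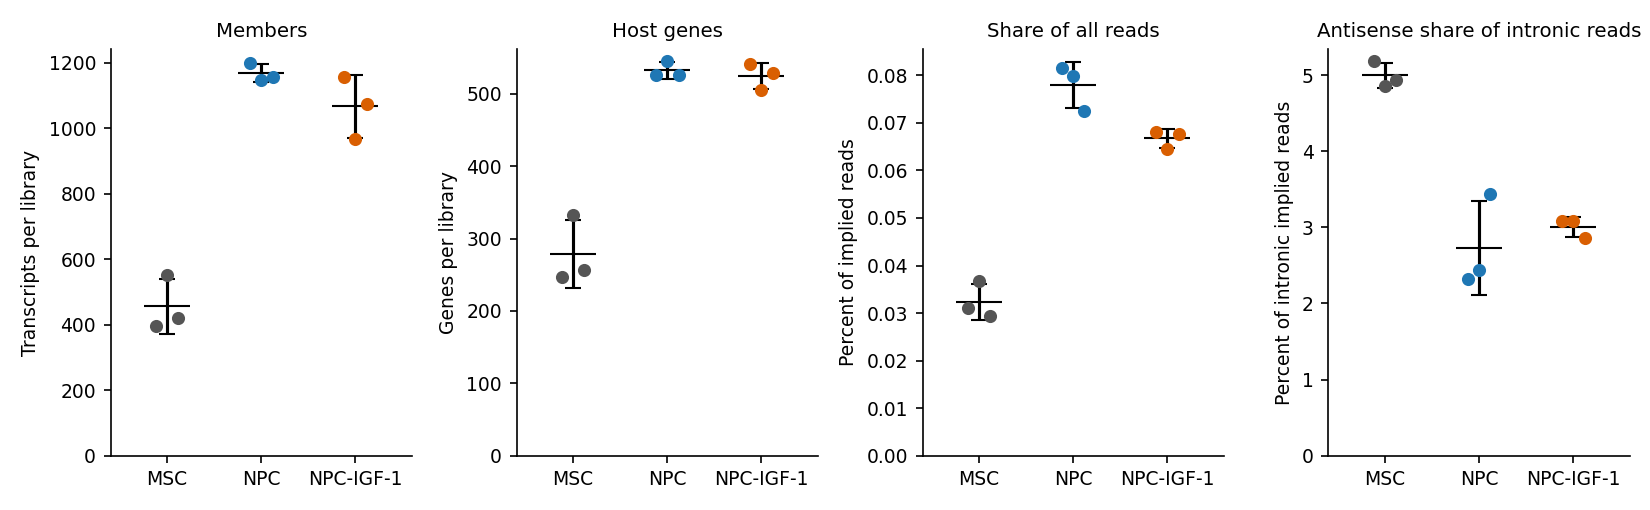
Number of members, number of host genes, percent of all implied reads held by members, and antisense percent of intronic implied reads, per library. Points are libraries, the long tick is the group mean and the bar its SD (n = 3). The 3 MSC libraries lie below all 6 induced libraries in the first 3 panels and above them in the last, at 4.86 to 5.19%.

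The amount of RNA was read from the files as implied reads, the number of reads that the width of each transcript's deposited confidence interval corresponds to. A member was a small object, with a median of 14.7 to 17.0 implied reads per library, and 59.4 to 68.9% of members had under 20. Together they held 0.0645 to 0.0816% of all reads in induced cells and 0.0294 to 0.0367% in MSCs (0.0724 ± 0.00696 against 0.0324 ± 0.00380%, exact permutation test, adjusted p = 0.0179). Taken instead as FPKM times length, the share was higher in MSCs, 0.488 against 0.241% (adjusted p = 0.0179). Among members of at least 300 bases that same measure was again higher in induced cells, 0.0427 against 0.0247%.

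Length and level per length did not separate induced cells from MSCs. Median length was 472, 422 and 419 bases in NPC, 463, 475 and 463 bases in NPC-IGF-1, and 460, 421 and 400.5 bases in MSC libraries (452 ± 25.1 against 427 ± 30.2, exact permutation test, adjusted p = 0.229). Median FPKM was 1.45, 1.92 and 1.57 in NPC, 1.26, 1.37 and 1.47 in NPC-IGF-1 and 1.60, 1.52 and 1.87 in MSC libraries (adjusted p = 0.321, exact), and the sign of either difference turned among members of at least 300 bases. Among single members FPKM ran from 0.0751 to 60731, because the deposited FPKM of very short transcripts is inflated. No member under 120 bases in any library had less than 39.9 FPKM. Members under 300 bases made up 20.3 to 29.4% of the induced and 27.7 to 35.0% of the MSC libraries.

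Intronic transcripts on the host strand numbered 29168 to 47942 in induced and 6587 to 10907 in MSC libraries, a ratio of means of 4.58. The antisense percent of intronic reads was lower after induction, at 2.32, 2.44 and 3.44% in NPC, 3.08, 3.08 and 2.86% in NPC-IGF-1, and 5.19, 4.86 and 4.94% in MSC libraries. The groups did not overlap (2.87 ± 0.425 against 4.995 ± 0.169%, exact permutation test, adjusted p = 0.0179). Single-exon unannotated transcripts outside annotated transcripts had a ratio of means of 1.94.

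With 3 libraries against 3, no permutation test can go below p = 0.10, so single pairs of groups are given as values. NPC-IGF-1 had 1067 ± 95.8 and NPC 1168 ± 27.8 members, with overlapping libraries (p = 0.30, exact). The share of reads held by members was 0.0668 ± 0.00199% with IGF-1 and 0.0780 ± 0.00482% without, and here the 3 libraries of each group stood apart (p = 0.10, exact, adjusted p = 0.45). For both induced groups the number of members, the number of hosts and both read shares were separate from MSCs, each at the limit of p = 0.10 (exact). The same held for median length and median FPKM of NPC-IGF-1 against MSC, 467 ± 6.93 against 427 ± 30.2 bases and 1.37 ± 0.108 against 1.66 ± 0.183 FPKM, but not of NPC against MSC.

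Along the host, members crowded towards the 3′ end. The last 10% of the host's length held 24.5% of all members and the first 10% held 5.74%, while the introns of these hosts are spread almost evenly, with 8.92% of their bases in the last 10% and 9.92% in the first 10%. Host-strand intronic transcripts had the opposite slope, with 17.4% in the first 10% and 7.59% in the last 10%. The last 20% of the host held 36.9 to 43.6% of members per library and 15.6 to 19.0% of host-strand intronic transcripts, and the antisense value was higher in 9 of 9 libraries (mean difference 24.8 percentage points, exact permutation of the 2 classes within libraries, adjusted p = 0.00469 over 6 measures). The unadjusted p, 0.00391, is the smallest that this test can give.

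**Figure D2:**
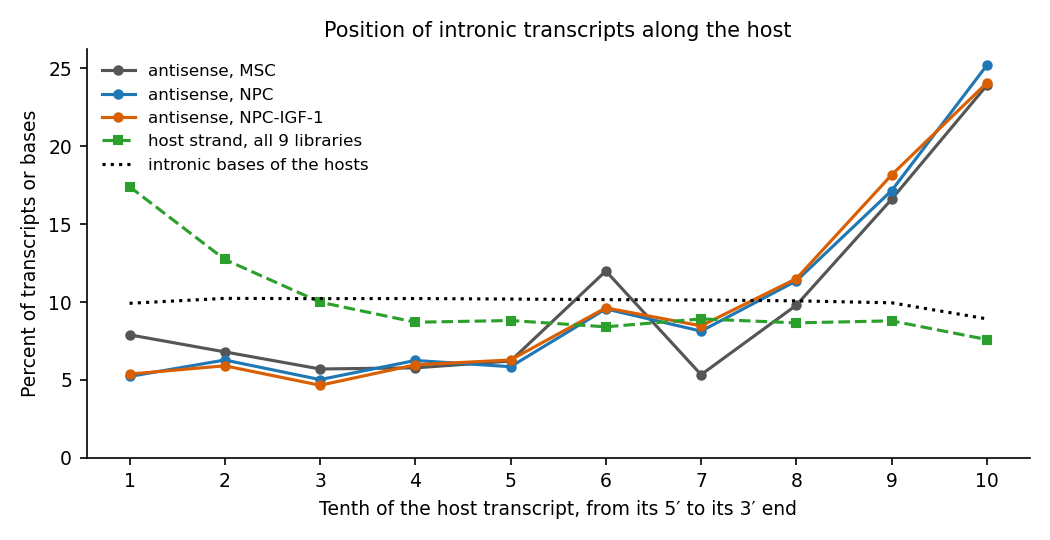
Percent of intronic transcripts in each 10% of the length of the host transcript, from its 5′ to its 3′ end, for antisense members of each group (3 libraries pooled), host-strand intronic transcripts of all 9 libraries, and the intronic bases of the hosts. The antisense lines of the 3 groups climb to 23.9 to 25.2% in the last 10%, whereas the host-strand line starts at 17.4% and ends at 7.59%.

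The classes differed in other ways. Only 15.7 to 18.3% of members lay in the first intron of the host, against 30.5 to 36.6% of host-strand transcripts (lower in 9 of 9 libraries, exact permutation, adjusted p = 0.00469). First introns hold 22.6% of the hosts' intronic bases. Members were longer, with medians of 400.5 to 475 bases against 217 to 262 (adjusted p = 0.00469, same test), while their median number of implied reads was 15.5 against 14.7 (adjusted p = 0.0781, exact) and among transcripts of at least 300 bases differed by -5.31. The host itself reached 1 FPKM for 56.9 to 66.9% of members and for 97.8 to 99.2% of host-strand transcripts (adjusted p = 0.00469, exact). Host-strand transcripts numbered 3.11 to 7.45 per host gene and members 1.61 to 2.28 (adjusted p = 0.00469, exact).

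**Figure D3:**
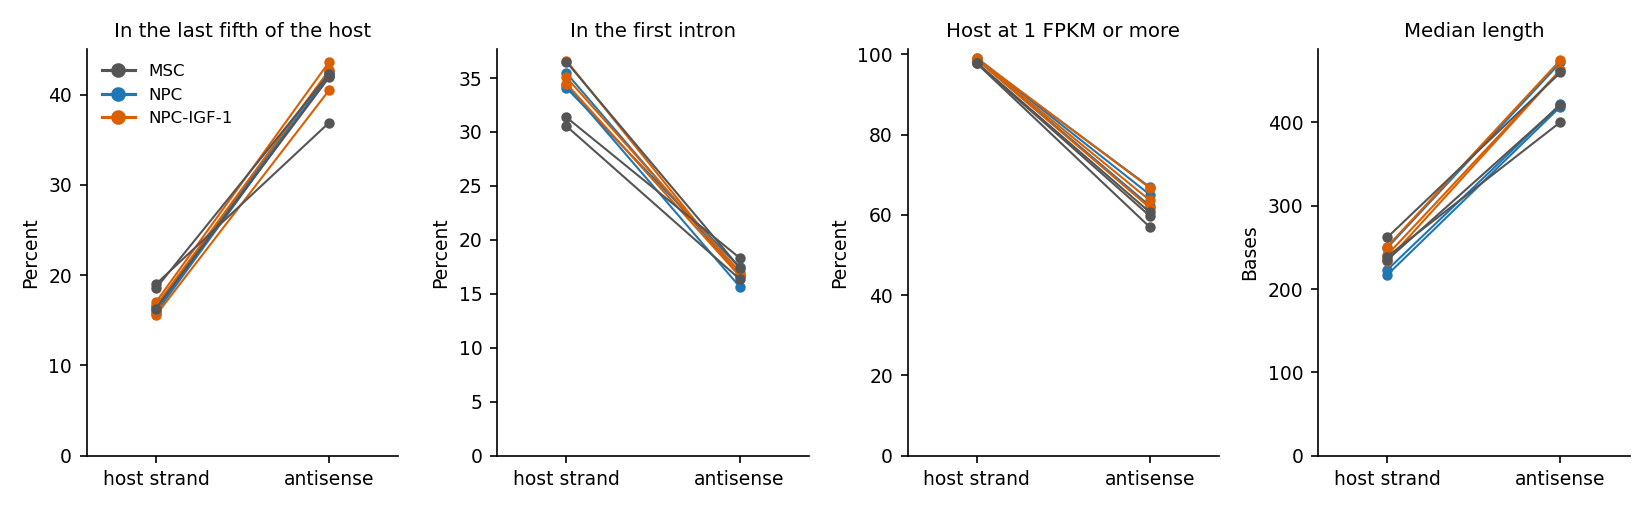
Values per library for host-strand intronic transcripts and antisense members, joined by a line, with colours for the 3 groups. In all 9 libraries the antisense members are more often in the last 20% of the host, less often in its first intron, less often in a host at 1 FPKM or more, and longer.

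Many members had an annotated gene of their own strand ending within 10 kb upstream. An annotated gene of that strand ended within 10 kb upstream of 45.0 to 51.0% of members per library, and started within 10 kb downstream of 6.99 to 8.84%. Within the hosts' introns 8.48% of bases have such a gene end within 10 kb upstream and 4.72% have a gene start within 10 kb downstream. These base shares weight each host by its intronic length, and the shares of members by its number of members. The 2 are therefore not on equal terms. The upstream gene was at 1 FPKM or more for 93.2 to 97.8% of the members that had one. Of all loci (defined below), 5.20% had such a gene end within 1 kb upstream, 10.6% within 2 kb, 28.4% within 5 kb and 49.5% within 10 kb. The share of intronic bases was obtained for 10 kb only. Among loci in the last 20% of the host 62.9% had a gene end within 10 kb upstream, and among the others 39.3%. The share with an upstream gene end did not separate the groups (49.0 ± 1.42% in induced cells and 46.5 ± 1.55% in MSCs, exact permutation test, adjusted p = 0.0952 over 8 measures). Members within 1 kb of the host's start made up 2.75 to 4.05% per library. The share of intronic bases there was not obtained, so this shows neither a shortage nor an excess.

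Of the same 8 measures, 2 passed the threshold between induced cells and MSCs. Members that overlapped a host-strand intronic transcript made up 5.48 to 7.08% in induced and 1.19 to 2.00% in MSC libraries (exact permutation test, adjusted p = 0.0476). Members whose host also held a host-strand intronic transcript made up 37.9 to 46.9% and 15.9 to 27.6% (adjusted p = 0.0476, exact). Without NPC replicate 2, NPC-IGF-1 replicate 2 or 3, or any 1 MSC library, both missed it, at adjusted p = 0.0714 to 0.143 (exact). The host was at 1 FPKM or more for 61.7 to 66.9% of members in induced and 56.9 to 60.6% in MSC libraries, which did not overlap (64.4 ± 2.20 against 59.1 ± 1.93%, exact permutation test, adjusted p = 0.0635), and this difference passed the threshold under 4 alternatives. The number of host-strand transcripts moved in the same direction between these groups, as given above, and its part in these differences was not tested. The last 20% of the host held 42.3 ± 1.03% of members in induced cells and 40.4 ± 3.02% in MSCs (adjusted p = 0.210, exact), a difference within the spread of the libraries.

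Overlapping members of different libraries were joined into 3041 loci in 1169 host genes, of which 170 had a symbol in the sources used. Of these, 1627 loci were assembled in 1 library only, and 48 in all 9. Of the loci of a library, 52.3 to 65.6% in the induced groups and 52.6 to 67.2% in MSCs were assembled in another library of the group. A total of 2308 loci were assembled only in induced libraries, 248 only in MSCs and 485 in both. Counting loci seen in every library of their kind, 47 were in all 6 induced and no MSC library, and 22 in all 3 MSC and no induced library. These counts set 6 induced libraries against 3 MSC libraries, so they are not on equal terms. Per library, loci numbered 813 to 1014 in induced cells and 323 to 468 in MSCs. Loci came in strings: 2094 lay within 2000 bases of another locus of the same host and strand, and all loci formed 1539 such runs. Absence from a file means that no transcript was assembled there, not that no read fell there.

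Among loci assembled in every library, the one with the highest mean value lay at chr5:176478615-176478936 on the minus strand, in intron 3 of 11 of ENSRNOT00000022900. Its implied reads were 621, 736 and 790 in NPC, 910, 725 and 685 in NPC-IGF-1, and 959, 1369 and 930 in MSC libraries. All MSC libraries were above all induced ones. As reads per kilobase of locus and per M reads, the scale used for the tests, these were 54.1 ± 5.63, 55.3 ± 4.36 and 75.2 ± 9.26, a log2 difference of -0.55 ± 0.14 (SE) for NPC against MSC (limma, adjusted p = 0.0211) and of -0.53 ± 0.12 for NPC-IGF-1 (adjusted p = 0.00736). Both were below the 2-fold change required here for a call, and the host stood at 19.6 to 25.5 FPKM in all groups.

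Of the 10 strongest loci assembled in all libraries none was called in any comparison. Flt1, a receptor for vascular endothelial growth factor, held an antisense locus of 296 bases in intron 16 of 29 (chr12:11283198-11283493, minus strand). Its reads were 55.1, 29.0 and 49.3 in NPC, 43.4, 47.5 and 52.7 in NPC-IGF-1 and 53.9, 49.3 and 39.5 in MSC libraries, so the groups overlapped. Flt1 itself was listed at 0 FPKM in all 6 induced libraries and at 1.42, 1.70 and 0.78 FPKM in MSCs (limma, adjusted p = 0.000206 for NPC and 3.1e-05 for NPC-IGF-1). Hat1, a histone acetyltransferase, held a locus of 352 bases in intron 2 of 10 (chr3:64519267-64519618, minus strand). It had 76.0, 71.5 and 77.5 reads in NPC, 104, 82.8 and 56.0 in NPC-IGF-1 and 37.6, 66.1 and 42.4 in MSC libraries. The log2 difference was 0.68 ± 0.20 for NPC against MSC (limma, adjusted p = 0.0317), while that of Hat1 itself was 0.04 (adjusted p = 0.873).

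Among the 48 loci assembled in all 9 libraries, fold changes do not rest on absent values. Of these, 11 were called higher and 2 lower in NPC than in MSC (limma, adjusted p of at most 0.05 and at least 2-fold), 8 and 2 in NPC-IGF-1 than in MSC, and 0 in NPC-IGF-1 against NPC. Over all genes and loci tested, 12.1% were called higher and 9.89% lower in NPC than in MSC, and 11.7% and 9.4% in NPC-IGF-1. The log2 differences of the 48 ran from -2.00 to 2.49 in the first comparison, with a median of 0.42.

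Over all loci, 446 of 3041 passed the filter on low values in the NPC and MSC libraries, 162 of them called higher and 27 lower. These 189 calls became 59, 69 and 78 without NPC replicate 1, 2 and 3, and 43 with a pseudocount of 1. With all 9 libraries 850 passed, of which 151 were called higher and 32 lower in NPC-IGF-1 than in MSC, 35 in all with a pseudocount of 1. Most could pass only through the group in which they were high, since 106 of the 162 and 114 of the 151 were assembled in no MSC library, so these counts say little beyond the presence of the transcripts. Both comparisons share the MSC libraries. They had 74 higher and 26 lower loci in common.

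The 5 loci called higher with the largest fitted change in NPC lay in 5 hosts. They were assembled in no MSC library and passed the filter through induced libraries alone, so their values are given with no test. At chr2:160092465-160093042, in intron 1 of 7 of ENSRNOT00000017736, reads were 143, 63.5 and 138 in NPC and 114, 42.4 and 0 in NPC-IGF-1, with none assembled in MSCs. A short locus in ENSRNOG00000016062 (chr3:156260516-156260698) had 22 to 29.0 reads in all 6 induced libraries and none in MSCs. Its host moved the other way, from 15.9 to 22.3 FPKM in MSCs to 6.90 to 9.37 FPKM in induced cells. In intron 4 of 6 of ENSRNOG00000012141 neighbouring loci at chr6:145380212-145380556 and chr6:145380724-145380952 had 36.2 to 59.9 and 33.4 to 63.5 reads in induced cells, against none and at most 11.9 in MSCs. This host rose as well, from 0.562 to 0.655 FPKM to 0.994 to 2.28 FPKM.

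The assembly of the files bears on some calls. The locus at chr17:78011208-78011531 (ENSRNOG00000023587) had 34.2, 41.3 and 48.7 reads in NPC and no member in MSCs, but another unannotated form covered it there with 53.2, 43.2 and 44.0 reads, and with all forms counted the log2 difference was -0.14. The fifth locus, chr1:226720039-226720433, had 31.0 to 58.9 reads in 5 induced libraries and none in the other 4. In Btbd9, a gene with a BTB domain, no other form was assembled over a locus that was called. This locus, in intron 1 of 10 (chr20:11432157-11432575), had 79.1, 22.8 and 45.8 reads in NPC, 88.1, 225 and 198 in NPC-IGF-1 and 0, 0 and 13.0 in MSC libraries. It was called higher in both comparisons, but the induced libraries alone were enough to admit it to the test, so it is given with no p-value. Btbd9 itself differed by -0.20 and -0.05 on the log2 scale (limma, adjusted p = 0.49 and 0.85).

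The 22 loci in all 3 MSC libraries and no induced one ran from 62 to 2774 bases. Those with the largest fitted fall were the same 5 in both comparisons and measured 62 to 242 bases. Values are per kilobase, so this ranking favours short loci. Each of the 5 was absent from all 6 induced libraries, so that they passed the filter through MSCs alone and are given with no test. At chr3:89914838-89915079, in intron 22 of 24 of ENSRNOG00000010495, MSC reads were 91.3, 56.0 and 86.0, with the host at 9.64 to 14.5 FPKM in every library. At chr8:95536484-95536548, 65 bases in intron 16 of 24 of ENSRNOT00000056818, they were 45.8, 33.4 and 46.7. Of the 22 loci in all 3 MSC libraries and no induced one, that with most reads, chosen after the values were seen, was longer. It spanned 2774 bases at chr8:71079739-71082512 inside ENSRNOG00000016121 and had 199, 261 and 304 reads. Of these 22 loci, 3 had a same-strand gene end within 10 kb upstream, and of the 47 in all 6 induced libraries and no MSC library, 21 did. Over all loci the share was 49.5%, so the 47 were not unusual in this.

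Calls between NPC-IGF-1 and NPC were few, 6 loci higher and 8 lower of 850, where 0.0597% of all genes and loci tested were called higher and 0.0597% lower. All 14 were assembled in no library of the group in which they were called lower, so the group with the reads admitted them to the test, with 9 to 86.6 reads among the 10 named by rule. For example, a locus in Adcy5 at chr11:71805237-71806069 had 16.0, 11 and 23.7 reads with IGF-1 and none without. At chr14:72973005-72975041 in ENSRNOG00000004719 reads were 86.6, 29.0 and 40 without IGF-1 and none with it. None was called with a pseudocount of 1 or of 0.01 in place of 0.1, and 85 loci had an unadjusted p under 0.05 in the fit as reported.

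The 10 hosts with most loci held 10.8 to 18.6% of member reads in induced and 6.98 to 7.69% in MSC libraries. These hosts were ranked by loci pooled over all libraries, and more of the libraries were induced than MSC. The ranking thus favoured hosts rich in members after induction. The shares, and the summed reads given for each of these hosts, therefore do not compare the groups on equal terms. ENSRNOG00000043185 on chromosome 13 (11957533 to 12804561) had 50 loci, all on the minus strand between 12284620 and 12456042. Their summed reads were 2552, 2006 and 3804 in NPC, 3024, 1295 and 1463 in NPC-IGF-1 and 411, 484 and 408 in MSC libraries, and every induced library exceeded every MSC library. The host was at 0.01 to 0.03 FPKM and the nearest upstream gene of the same strand, 109100 bases or more away, was listed at 0. Without this host, members still held 0.0613 to 0.0751% of reads in induced cells and 0.0285 to 0.0357% in MSCs.

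**Figure D4:**
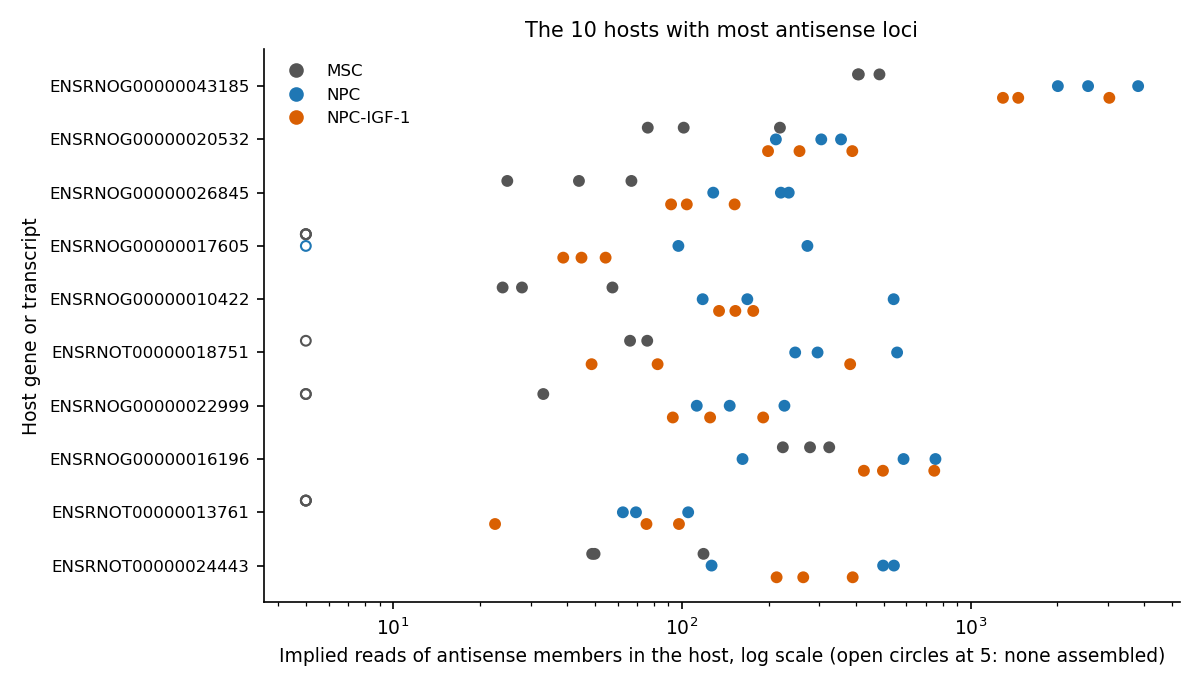
Summed implied reads of the antisense members in each of the 10 hosts with most loci, per library, on a log axis. The hosts were ranked by loci pooled over all libraries, which favours hosts rich in members after induction. Points are libraries coloured by group, and open circles drawn at 5 mark libraries with no member. ENSRNOG00000043185 stands highest, at 408 to 484 reads in MSCs and 1295 to 3804 in induced cells.

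Of the other 9 hosts, 3 also stood below 0.25 FPKM in every library. ENSRNOG00000020532 had 25 loci with 199 to 390 reads in induced and 76.3 to 219 in MSC libraries, and stood at 0.02 to 0.07 FPKM. ENSRNOG00000016196 had 19 loci with 162 to 756 and 224 to 324 reads, and stood at 0.02 to 0.17 FPKM. In both, the groups overlapped. ENSRNOG00000026845, at 0.02 to 0.24 FPKM, had 24 loci with 91.9 to 235 reads in induced and 24.9 to 67.0 in MSC libraries, which did not overlap. In ENSRNOG00000017605 (23 loci) there were 0 to 272 reads in induced cells and none in MSCs, with 272 in NPC replicate 1 and none in NPC replicate 3. ENSRNOG00000010422 (22 loci) went from 24.0 to 57.6 reads in MSCs to 118 to 542 in induced cells, while the host fell by 1.15 on the log2 scale in NPC (limma, adjusted p = 0.00922) and by 1.29 in NPC-IGF-1 (adjusted p = 0.0018).

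The remaining 4 were ENSRNOT00000018751 (22 loci), ENSRNOG00000022999 (21), ENSRNOT00000013761 (19) and ENSRNOT00000024443 (17). ENSRNOT00000018751 had 48.8 to 557 reads in induced and 0, 66.3 and 76.0 in MSC libraries, which overlapped. ENSRNOG00000022999 went from 0, 0 and 33.2 reads in MSCs to 93.2 to 227 in induced cells and ENSRNOT00000013761 from none to 22.6 to 105, at host levels that gave no call. ENSRNOT00000024443 had 127 to 543 reads in induced and 49.0 to 119 in MSC libraries, and its host was called higher, by 1.29 in NPC (limma, adjusted p = 0.0255) and 1.28 in NPC-IGF-1 (adjusted p = 0.0219).

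Named hosts were picked after their values were seen, and they show both directions of the host. In Mrnip, a partner of the MRE11 DNA repair complex, 12 loci formed 1 run on the minus strand of chromosome 10, between 35442605 and 35462413. Reads were 591, 471 and 414 in NPC, 323, 357 and 464 in NPC-IGF-1, and 13.0, 13.0 and 16.0 in MSC libraries. Mrnip itself was at 2.40 to 3.27 FPKM in induced cells and 0 to 1.18 FPKM in MSCs, a log2 change of 2.43 ± 0.93 (SE) in NPC (limma, adjusted p = 0.0817) and of 2.49 ± 0.83 in NPC-IGF-1 (adjusted p = 0.0440). The run began 759 bases beyond the end of ENSRNOT00000004308, an abundant transcript of the same strand at 141 to 184 FPKM in induced cells and 96.4 to 146 FPKM in MSCs. That transcript changed by 0.18 ± 0.15 (SE) on the log2 scale in NPC (limma, adjusted p = 0.379) and by 0.37 ± 0.13 in NPC-IGF-1 (adjusted p = 0.0463).

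Ada, adenosine deaminase of purine metabolism, had 14 loci. Their reads were 71.9, 39.7 and 88.7 in NPC, 83.9, 45.6 and 123 in NPC-IGF-1, and none in MSC libraries. Ada itself fell, from 5.42 to 6.33 FPKM in MSCs to 1.31 to 4.06 FPKM in induced cells (log2 change -1.80 in NPC, limma, adjusted p = 0.00181, and -1.46 in NPC-IGF-1, adjusted p = 0.0113). The gene that ended 965 to 16903 bases upstream of these loci, ENSRNOT00000051590, rose from 20.7 to 28.7 FPKM to 60.8 to 92.1 FPKM (limma, adjusted p = 0.00189 and 0.000147). Over all loci called higher in NPC, 65 upstream genes within 10 kb were tested, 4 of them called higher (6.15%) and 2 lower. For NPC-IGF-1 against MSC it was 2 higher and 2 lower of 64. Among all genes and loci tested, 12.1% and 11.7% were called higher in these comparisons. A link between upstream gene and locus was not tested.

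Adcy5, an adenylyl cyclase that makes cyclic AMP, had 12 loci in 1 run, with 221, 70.1 and 167 reads in NPC, 204, 182 and 206 in NPC-IGF-1 and 27.7, 14.0 and 14.0 in MSC libraries. The gene fell from 4.77 to 7.42 FPKM to 1.57 to 3.49 FPKM (limma, adjusted p = 0.00129 and 0.00603). In Fdft1, squalene synthase of cholesterol synthesis, 4 loci had 20 to 72.9 reads in induced cells and 0 to 9.59 in MSCs, and the gene fell from 11.9 to 16.0 FPKM to 3.83 to 5.39 FPKM. In Vax2, a homeobox factor of eye development, 3 loci had 73.8 to 153 and 0 to 11 reads, and the gene fell by 1.41 on the log2 scale in NPC (limma, adjusted p = 0.0396).

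In other hosts the gene and its antisense members rose together or the gene gave no call. Sox5, a SOX family factor, rose from 2.45 to 2.51 FPKM in MSCs to 11 to 19.7 FPKM (limma, adjusted p = 0.000171 for NPC), and its antisense loci had 41.8 to 119 reads in induced libraries and none in MSCs. Dagla, which makes the endocannabinoid 2-arachidonoylglycerol, rose from 0.431 to 0.65 FPKM to 1.49 to 3.74 FPKM, with 9 to 134 antisense reads in induced cells and 0 to 13.0 in MSCs, ranges that overlap. Pnpt1, the mitochondrial polynucleotide phosphorylase, held 16 loci with 22.6 to 134 reads in induced and 0, 0 and 13.0 in MSC libraries, while the gene stayed at 6.43 to 9.37 FPKM (adjusted p = 0.882 for NPC). Pdzk1, a scaffold protein, held 5 loci that did not separate the groups, at 94.1 to 178 and 134 to 179 reads.

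Pearson's r between the log2 changes of a locus and of its host was 0.06 over the 370 loci whose host was also tested for NPC against MSC, and 0.01 over 739 loci for NPC-IGF-1. Between a locus and a tested upstream gene of its strand within 10 kb, r was 0.01 over 202 loci for NPC. For NPC-IGF-1 it was 0.07 over 402 loci. Loci of 1 host are not independent, and r is given as a description. Many loci passed the filter only through the group in which they were high, and their changes depend on the pseudocount. These values of r therefore cannot show whether antisense loci and genes move together.

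**Figure D5:**
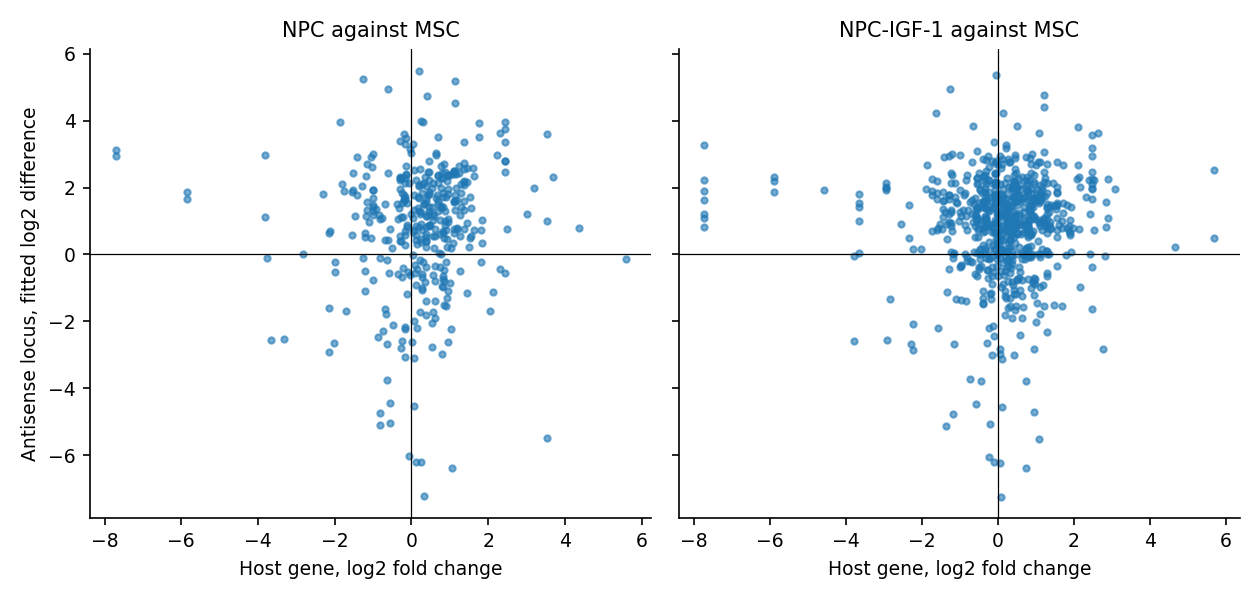
Fitted log2 difference of each antisense locus against the log2 fold change of its host gene, for NPC against MSC (370 loci) and NPC-IGF-1 against MSC (739 loci). Points are loci, and values of loci absent from 1 group depend on the pseudocount. Most points lie above 0 for the locus and on either side of 0 for the host. Loci could pass the filter through the group in which they were high, so their side of 0 is no separate result.

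The gene lists chosen for this tissue say little about hosts, since most of their genes carry no symbol in the files. Over all annotated genes 1169 of 26249 were hosts, so lists with so few named genes cannot show a shortage. Of 3 actin and focal adhesion genes named, 1 was a host. This was Myh10, a non-muscle myosin heavy chain, with 3, 1 and 0 members in NPC, 0, 0 and 2 in NPC-IGF-1 and none in MSC libraries, with the gene at 9.92 to 13.0 FPKM in induced cells and 45.6 to 61.5 FPKM in MSCs. Of 3 extracellular matrix genes, Lamc1, a laminin chain, had 1 member in each of 2 MSC libraries. None of the 3 growth factor receptors or adaptors, 6 neural adhesion and synapse genes, 2 chromatin and transcription factors and 6 neural progenitor markers was a host.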

How the data were processed

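RNA from 9 libraries (3 MSC, 3 NPC, 3 NPC-IGF-1) was sequenced single-end on a stranded mRNA kit. Per the submitters' processing notes, CASAVA 1.8, bcl2fastq, TopHat, Bowtie2, Cufflinks and Cuffdiff were used. The authors deposited 1 assembled transcript file per library, with a Cufflinks score in the score column and FPKM with its confidence interval in the attribute text. The study's methods describe another route for its gene counts, which was not used here. Contig names are of the Rnor_5.0 series, and the labels of these files name no build (the methods' other route used rn6).

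FPKM is per effective length, so the reads of a transcript were implied from its confidence interval, as the square of 2 times FPKM over the upper bound minus FPKM, in place of the planned FPKM times length, which was kept as an alternative. Only 44.3% of member values came out whole within 0.02, so no count test was run. Loci were tested as implied reads per kilobase and depth with size factors, on log2(value + 0.1), together with annotated genes as FPKM, where at least 3 libraries reached 0.1, in limma 3.58.1 (R 4.3.3), over the 6 NPC and MSC libraries for that pair and all 9 otherwise. Fits were checked on simulated data. Calls were made at 0.05 after Benjamini-Hochberg adjustment over all features, and at 2-fold or more. Library measures were compared by two-sided exact permutation tests. These p-values measure the spread between libraries, which may be technical. Annotated transcripts were pooled over the 9 files. Named loci were the 10 with the highest mean value among those in all 9 libraries and, per comparison, the 5 called loci with the largest fitted change in each direction whose groups did not overlap. The 10 hosts with most loci and hosts in the gene lists were also named. Members and lists were chosen with earlier results of these data known, and the feature and host-strand comparisons and 5 alternatives were added after seeing the data. Gene symbols were taken from the study's supplementary tables. One marker is not reported here.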

Additional observations from a re-analysis of the deposited data

Results flagged for a closer look

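Single-exon unannotated transcripts that lay inside annotated transcripts on both strands belong to neither intronic class and entered no comparison above. They numbered 402, 372 and 280 in NPC, 248, 247 and 252 in NPC-IGF-1, and 41, 117 and 48 in MSC libraries. The mean was 300.2 ± 69.0 in the 6 induced libraries, above 68.7 ± 42.0 in the 3 MSC libraries (exact permutation test, two-sided, p = 0.0119, the smallest that 84 regroupings can give).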

How the results depend on the processing

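Members, hosts and both read shares kept their direction under every alternative except the share as FPKM times length (-0.247 percentage points). Blocking by replicate number gave differences of 661.5 members, 250.2 hosts, 0.0400 and -2.13 percentage points at adjusted p = 0.0556, the limit of 27 regroupings. Same-numbered libraries correlated at -0.0955 to 0.103, so the numbers were not taken to pair them. Leaving out 1 library gave 632 to 709 members, 234 to 277 hosts, 0.0381 to 0.0421 and -2.24 to -2.02 percentage points. Without any 1 MSC library the 28 regroupings left cannot reach the threshold after adjustment (adjusted p = 0.0536). Median FPKM differed by -0.290 with at least 0.5 implied fragments per M reads (adjusted p = 0.0429) and by 0.0914 with members of at least 300 bases, where median length differed by -15.0 bases. There the last 20% of the host differed by -2.33, the upstream gene end by -1.49, the downstream gene start by 0.615 and the first intron by 1.29 percentage points between induced cells and MSCs. With members at least 1 kb from same-strand exons the downstream gene start differed by 0.0792. Median implied reads of antisense minus host-strand transcripts became -5.31 at 300 bases or more, and 0.648 to 1.09 when 1 library was left out, past the threshold without NPC replicate 1.

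Called loci numbered 189 for NPC against MSC, 183 for NPC-IGF-1 against MSC and 14 for NPC-IGF-1 against NPC. A pseudocount of 1 gave 43, 35 and 0, a value of at least 0.5 in 3 libraries 76, 101 and 0, and all unannotated transcripts over a locus 304 and 316. The 14 became 0 with a pseudocount of 0.01 or the replicate block, 8 without a filter, 3 with quantile normalisation and 1 with only both groups in the fit. Without 1 library the ranges were 59 to 155, 122 to 193 and 0 to 5. The first was 59, 69 and 78 without NPC replicate 1, 2 and 3, since the filter then leaves out loci seen only in NPC. The locus at chr17:78011208 differed by -0.14 with all forms counted. The replicate block changed no other call count by over 1.5 times. Other causes were not tested. Most members rest on under 20 implied reads, so absence of a locus is not detectable as such at this depth.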

Other observations

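Spliced unannotated transcripts inside a host intron on the opposite strand, which the single-exon rule leaves out, numbered 15, 13 and 16 in NPC, 21, 17 and 14 in NPC-IGF-1 and 21, 19 and 14 in MSC libraries. Their means were 16 ± 2.83 (n = 6) and 18 ± 3.61 (n = 3), a difference within the spread of the libraries (exact permutation test, two-sided, p = 0.452).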
